A study of Schizosaccharomyces pombe with 50 samples.

Results

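The genes pho84, tgp1, pho1 and pho7 belong to the phosphate starvation response of the fission yeast Schizosaccharomyces pombe. They were taken by gene name from the deposited tables of open reading frame (ORF) windows and are 4 of 6613 windows. The rule used no measured value, but the genes were chosen with earlier results of these data known. Chromatin immunoprecipitation with sequencing (ChIP-seq) was performed with 8 antibodies, against RNA polymerase II phosphorylated on serine 5 (S5) or serine 2 (S2) of its C-terminal domain, histone H3, H3K4me3, H3K9ac, H3K9me2, H3K9me3 and the histone variant H2A.Z. Vegetative (V) cells grew in PMG minimal medium, and quiescent (Q) cells were kept for 24 h in PMG without nitrogen. Nitrogen, and not phosphate, was the nutrient removed. All cells were of strain Hu3112 with the genotype mat1-M smt-0 pht1-myc, so that H2A.Z (Pht1) was Myc-tagged in V and Q cells alike and was read with an antibody against the tag. Each antibody had 3 V and 3 Q libraries, 48 in all.

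Fission yeast cells short of phosphate acquire it through secreted and membrane proteins: pho1 encodes a cell-surface acid phosphatase, pho84 an inorganic phosphate transporter and tgp1 a transporter of glycerophosphodiesters, and pho7 encodes the zinc-finger transcription factor that activates all of them. When phosphate is plentiful, long noncoding RNAs (lncRNAs) are transcribed from upstream of each target gene and across its promoter, prt2 ahead of pho84, prt ahead of pho1 and nc-tgp1 ahead of tgp1, and this transcription keeps the downstream gene low. Polymerase phosphorylated on S5 is typical of the early part of a transcription unit and S2 of the later part, H3K4me3 and H2A.Z mark the starts of transcribed genes, and H3 measures nucleosomes themselves.

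The sequences ahead of the starts are shown because the target genes and their lncRNAs sit in tandem on chromosome II. Those ahead of pho1 and tgp1 lie within prt and nc-tgp1. All sequences shown are from RefSeq, build ASM294v3, and end at the base before the transcript start. They are written 5′ to 3′ on the strand of the transcript. Capitals mark the 12 bases of a recognition motif of Pho7 (TCG, any 4 bases, TT, any base, AA) in the target genes and CAGTCAC, the letters of the HomolD box, in the lncRNAs.
tgp1, chrII:352412-352661, minus strand: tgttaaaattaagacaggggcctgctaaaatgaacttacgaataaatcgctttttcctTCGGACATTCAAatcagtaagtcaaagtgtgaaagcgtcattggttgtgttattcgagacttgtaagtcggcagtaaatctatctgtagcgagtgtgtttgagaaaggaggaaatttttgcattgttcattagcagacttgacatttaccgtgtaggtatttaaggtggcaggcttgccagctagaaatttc
pho1, chrII:4447256-4447505, plus strand: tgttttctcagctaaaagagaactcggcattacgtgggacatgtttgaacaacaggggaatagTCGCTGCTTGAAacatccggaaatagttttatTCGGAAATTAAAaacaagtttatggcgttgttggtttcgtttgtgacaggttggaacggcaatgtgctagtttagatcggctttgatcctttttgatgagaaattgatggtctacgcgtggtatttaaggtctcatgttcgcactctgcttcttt
prt, chrII:4446201-4446358, plus strand: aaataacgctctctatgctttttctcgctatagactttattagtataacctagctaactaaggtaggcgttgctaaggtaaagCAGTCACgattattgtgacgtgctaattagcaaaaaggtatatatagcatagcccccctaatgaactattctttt
nc-tgp1, chrII:354235-354484, minus strand: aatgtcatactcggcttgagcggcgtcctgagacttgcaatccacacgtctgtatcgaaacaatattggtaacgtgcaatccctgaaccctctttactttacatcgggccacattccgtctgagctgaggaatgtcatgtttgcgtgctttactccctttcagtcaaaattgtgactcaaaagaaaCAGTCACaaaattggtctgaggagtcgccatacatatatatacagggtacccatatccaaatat

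Searched on both strands, the Pho7 letters occurred 192 to 181 bases ahead of tgp1, and 187 to 176 and 155 to 144 bases ahead of pho1. They did not occur in the 250 bases ahead of pho84 or of pho7 itself. The HomolD letters occurred 75 to 69 bases ahead of prt and 64 to 58 bases ahead of nc-tgp1, and not in the 250 bases ahead of prt2. Of 5112 protein-coding genes, 297 (5.81%) held the Pho7 letters and 231 (4.52%) the HomolD letters in the 250 bases ahead of the start. The sequences shown cover separate stretches, so the 2 motifs could share no position in them. The upstream sequence of prt was limited to 158 bases by the end of pho84.

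What each window covers decides what its values describe. The files use build ASM294v2 and the gene positions are from ASM294v3. Of 2381 chromosome II windows matched by identifier, 1898 have at least 1 end exactly 200 bp outside the gene in ASM294v3, and this holds for the windows of pho84, pho1 and pho7. The pho84 ORF window (SPBC8E4.01c, chromosome II, 4443925 to 4446400) holds the whole single-exon gene (4444101 to 4446200, plus strand), most of prt2 (4442542 to 4445970) and an antisense lncRNA, SPNCRNA.6616. The pho1 window (SPBP4G3.02, 4446173 to 4449253) holds the whole gene (4447506 to 4449053, plus strand) and all of prt (4446359 to 4448918, nc-pho1 in the annotation), with a short antisense lncRNA, SPNCRNA.6617. Reads of these libraries carry no strand of transcription, so a gene and its lncRNA cannot be told apart within a window. The pho84 and pho1 windows share 227 bp.

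The tgp1 window (SPBC1271.09, 350492 to 350940) holds only the 3′ part of the gene (350310 to 352411, minus strand), with 21.4% of the gene and 10.0% of its coding sequence, and nothing of nc-tgp1 (352335 to 354234). The pho7 window (SPBC27B12.11c, 1344912 to 1348169) holds the whole gene (1345112 to 1347974, minus strand). Each gene also has a transcription start site (TSS) window in a second set of tables, placed at the lower coordinate of the ORF window. Only the TSS window of pho84 lies at its own start. That of pho1 ends 933 bp short of the pho1 start and holds the start of prt, and those of tgp1 and pho7, on the minus strand, lie at the 3′ ends of the genes.

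Values are read counts of a window after size-factor scaling by the authors, called normalized reads here. The libraries held 856936 to 20673131 reads in ORF windows (median 7441339) and 170278 to 5319910 in TSS windows (median 1529819), and the windows of the 4 genes held 14 to 6041 reads each. Q replicates 2 and 3 of S5 and of S2 differed by less than the sampling noise and were counted as 1 library (n = 3 V and 2 Q). In the S2 TSS table, the column of V replicate 3 equalled that of H3K9me2 in 6612 of 6613 windows and was left out. As a description of the states, among 5 genes of nitrogen starvation and mating (fnx1, isp4, isp6, ste11 and mei2) H3K4me3 was called higher in Q at isp4, ste11 and mei2 and S5 at none, against 19.4% and 5.17% of all ORF windows.

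The Q libraries also resembled each other. Across ORF windows, per kb, the log2 S5 signal had a Pearson r of 0.426 to 0.531 with H3 of the same replicate in V libraries and of 0.952 to 0.983 in Q libraries. For H3K4me3 the range was 0.151 to 0.319 in V and 0.804 to 0.983 in Q, and for H2A.Z 0.106 to 0.451 in V and 0.625 to 0.985 in Q. In replicate 1 of Q, every antibody reached at least 0.951. The windows share their DNA and base composition in these correlations, and the part of this likeness in the changes below was not tested. How much of the Q signal of S5, H3K4me3 and H2A.Z was specific to the antibody, over a background that follows H3, cannot be told apart from these values. Values without replicate 1 and relative to H3 are therefore given beside many of the results, though not for every window and antibody.

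A change is the log2 difference of Q from V of log2(value + 1), with its standard error (SE), fitted with limma and adjusted over all windows of a table with the Benjamini-Hochberg method. A window was called where the adjusted p was under 0.05 and the change over 1 in size, and "by the p alone" means the adjusted p only. Changes are relative to the other windows of a library, whose median change was close to 0, so a change shared by the whole genome is not seen. In pools of cells, fewer cells with a mark and less of it per cell cannot be told apart.

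H3K4me3 was higher in Q in the windows of all the target genes. It was called at pho84, tgp1 and pho1, 3 of the 4 ORF windows, where 19.4% of all windows were called higher, and at none lower, where 13.8% were. At pho84, the transporter, V libraries gave 562, 534 and 469 normalized reads and Q libraries 1810, 1848 and 1511. The groups did not overlap, and the change was 1.72 ± 0.06 (SE, n = 3 and 3, limma adjusted p = 0.00050), a 3.30-fold difference of means. It ranked at percentile 88.8 of 6576 windows, with 738 larger.

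At tgp1 the H3K4me3 values were the lowest of the 4 windows in V, with 45.8, 44.1 and 43.5 normalized reads in V and 369, 337 and 272 in Q. Every Q library lay far above every V library, and the change was 2.84 ± 0.20 (SE, n = 3 and 3, limma adjusted p = 0.00050), a 7.33-fold difference of means over the 3′ end of the gene. Of 6576 windows, 38 changed more, but this window of 448 bp holds 21.4% of its gene, where ORF windows were to hold whole genes. The V values rest on 15, 49 and 51 reads. The TSS window of tgp1, which covers nearly the same bases, gave 43.8, 39.1 and 33.9 in V and 336, 301 and 238 in Q, a change of 2.87 ± 0.21. Among TSS windows, 123 of 6556 changed more.

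At pho1, the acid phosphatase, V libraries held 746, 717 and 637 normalized reads of H3K4me3 and Q libraries 1939, 1763 and 1455, again without overlap. The change was 1.29 ± 0.06 (limma adjusted p = 0.00050). At the regulator pho7 the difference was smaller. Its V libraries gave 1543, 1383 and 1318 and its Q libraries 1811, 1760 and 1659, which did not overlap, and the change of 0.30 ± 0.06 passed the p alone (limma adjusted p = 0.0047), as did 40.9% of all windows in that direction. Without replicate 1 the changes at pho84, tgp1, pho1 and pho7 were 1.74, 2.76, 1.24 and 0.34.

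**Figure D1:**
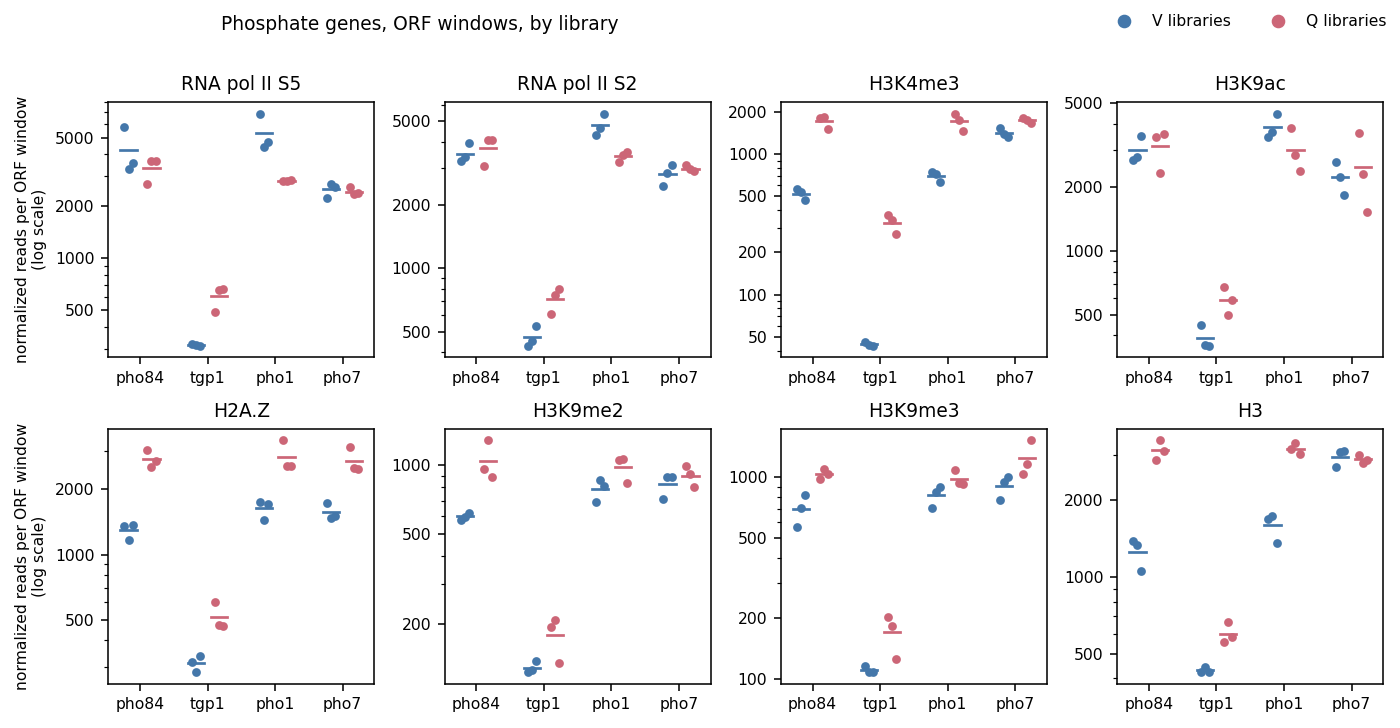
Normalized reads per ORF window (log scale) for pho84, tgp1, pho1 and pho7 with each of the 8 antibodies. Points are single libraries (blue V, red Q) and lines the means of the points drawn, with all 3 Q libraries of S5 and S2 shown. For H3K4me3 and H2A.Z every Q library lies above every V library at all 4 genes, while for S5 the pho1 points lie lower in Q and the tgp1 points higher.

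The H3 signal rose at pho84 and pho1 relative to the other windows. H3 was called higher at these 2 of the 4 ORF windows, where 1.38% of all windows were called higher and 0% lower. At pho84 the V libraries gave 1379, 1332 and 1060 normalized H3 reads, the Q libraries 2868, 3442 and 3129. The change was 1.33 ± 0.09 (limma adjusted p = 0.0033), a 2.50-fold difference of means, and 32 of 6580 windows changed more.

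At pho1 the H3 values were 1682.8, 1740.5 and 1354.6 in V and 3183, 3342 and 3050 in Q, without overlap. The change of 1.01 ± 0.06 (limma adjusted p = 0.0024) lay at the threshold, and was 0.99 when the libraries were scaled to their totals and 0.93 without replicate 3. H3 at tgp1 gave 426, 442 and 424 in V and 555, 664 and 580 in Q, a change of 0.47 ± 0.10 that passed the p alone (limma adjusted p = 0.036), as did 8.81% of windows. At pho7 the V values of 2698, 3082 and 3120 overlapped the Q values of 3005, 2812 and 2880, and the change was -0.03 ± 0.07 (limma adjusted p = 0.80).

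The H3 difference was also present in the TSS windows at the pho84 start and at the prt start. At the pho84 start H3 gave 188, 161 and 105 in V and 326, 368 and 343 in Q, a change of 1.23 ± 0.13, and 0.99 without replicate 3. At the prt start, in the TSS window named for pho1, it gave 186, 171 and 108 in V and 406, 475 and 410 in Q, a change of 1.50 ± 0.10 that 26 of 6557 windows exceeded. In the H3 TSS table limma took nearly all of its error from windows of like level, so these p-values are given without the replicate block. The limma adjusted p without the block was 8.1e-06 at the first and 5.3e-07 at the second. Of all TSS windows, 2.41% were called higher in H3 and 0% lower, and the TSS windows of tgp1 (0.36 ± 0.44) and pho7 (-0.20 ± 0.20) were not called. These SEs too come from windows of like level. At tgp1 the groups did not overlap, with 357, 414 and 420 in V and 485, 556 and 490 in Q.

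H2A.Z rose at all 4 genes by the p alone and was called at pho84. The background is 1.17% of ORF windows called higher and 1.47% lower, and 38.3% and 38.9% by the p alone. At pho84 the V libraries gave 1350, 1165 and 1377 normalized reads, against 3040, 2533 and 2699 in Q libraries. The change was 1.09 ± 0.05 (limma adjusted p = 0.00033), larger than that of all but 27 of 6578 windows. At pho1 V gave 1753, 1443 and 1722 and Q 3383, 2558 and 2581, a change of 0.79 ± 0.08.

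The regulator pho7 showed an H2A.Z change of the same size without any change in H3. Its V libraries gave 1740, 1469 and 1512 normalized reads and its Q libraries 3149, 2517 and 2488, a change of 0.78 ± 0.04 (limma adjusted p = 0.00035). At tgp1 V gave 317, 286 and 339 and Q 603, 472 and 465, a change of 0.70 ± 0.11. Q replicate 1 was the highest of the Q libraries at each of the 4 genes. Without replicate 1 the changes were 1.04 at pho84, 0.70 at pho1, 0.75 at pho7 and 0.59 at tgp1.

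S5 rose at tgp1 and fell at pho1, both by the p alone. No member was called for S5 at the fold threshold, against 5.17% of ORF windows called higher and 1.03% lower. By unadjusted p, 2 of the 4 were under 0.05, and edgeR and DESeq2 on the recovered reads called 0. At tgp1 the S5 V libraries gave 318, 313 and 312 normalized reads, against 491, 655 and 665 in Q libraries, without overlap. The change of 0.85 ± 0.14 (n = 3 and 2, limma adjusted p = 0.0058) passed the p alone, which 26.2% of windows did in that direction, and it was 1.08, and called, without replicate 1.

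At pho1, S5 V libraries gave 6869, 4382 and 4697 and Q libraries 2787, 2817 and 2850. Every Q library lay below every V library, V replicate 1 being the highest. The change was -0.89 ± 0.19 (limma adjusted p = 0.012), passing the p alone as did 25.6% of windows in that direction, and it ranged from -0.68 without replicate 1 to -1.01, which was called, without replicate 2. It lay at percentile 2.07 of the changes of 6579 windows.

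At pho84, S5 V libraries gave 5780, 3306 and 3572 and Q libraries 2694, 3636 and 3652. The groups overlapped, and the change of -0.38 ± 0.26 (limma adjusted p = 0.25) turned to 0.08 without replicate 1. At pho7 the values of 2227, 2697 and 2597 in V and 2579, 2342 and 2379 in Q overlapped as well, with a change of -0.02 ± 0.10.

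S2, the mark of elongating polymerase, differed in the same directions but passed at no ORF window of the 4 in limma. Among all windows 0.106% were called higher and 0.122% lower. By unadjusted p 2 of the 4 genes were under 0.05, and edgeR and DESeq2 called 0. At tgp1 S2 gave 429, 452 and 534 normalized reads in V and 609, 744 and 793 in Q, a difference of 0.54 ± 0.16 (limma adjusted p = 0.088). At pho1 it gave 4321, 4656 and 5435 in V and 3210, 3466 and 3568 in Q, a difference of -0.51 ± 0.12 (limma adjusted p = 0.064).

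Neither S2 pair of groups overlapped. With all 3 Q libraries and the replicate block, the adjusted p was 0.021 at tgp1 and 0.020 at pho1. DESeq2 gave an adjusted p of 0.035 at tgp1 and 0.00065 at pho1, and limma on library totals 0.067 and 0.038. At pho84 (0.01 ± 0.15) and pho7 (0.11 ± 0.11) the S2 groups overlapped.

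**Figure D2:**
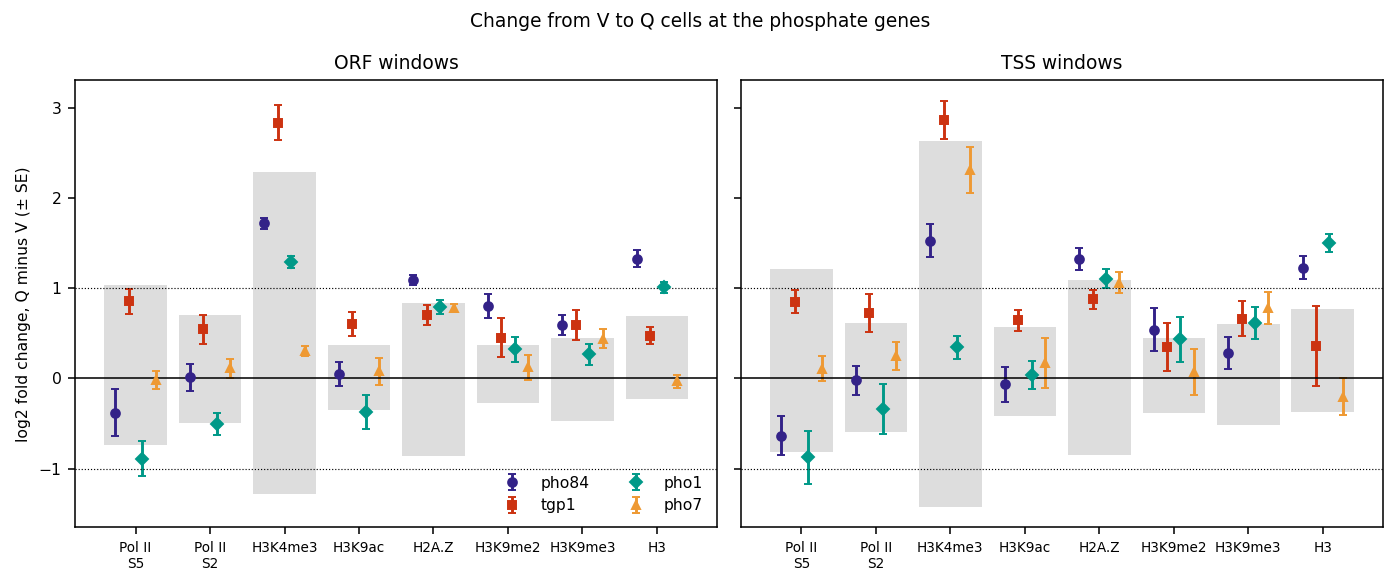
Change from V to Q (log2, ± SE) of the 4 genes with each antibody in ORF and TSS windows. Grey marks the 5th to 95th percentile of all windows tested and the dotted lines a change of 1 in size. In ORF windows tgp1 stands highest in H3K4me3 (2.84), pho84 highest in H3 (1.33), and pho1 lowest in S5 (-0.89).

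The ratio of polymerase to H3 of the same state and replicate fell at pho84 and pho1, where H3 itself rose. At pho84 the S5 change alone was -0.38, which did not pass, and the H3 change 1.33. At pho1 they were -0.89 and 1.01. The log2 ratio of S5 to H3 over pho84 was 2.07, 1.31 and 1.75 in V libraries and -0.09, 0.08 and 0.22 in Q libraries. The groups stood wide apart, and the change was -1.68 ± 0.36 (limma adjusted p = 0.0068). At pho1 the ratio was 2.03, 1.33 and 1.79 in V and -0.19, -0.25 and -0.10 in Q, a change of -1.90 ± 0.31 (limma adjusted p = 0.0040). Of all windows, 6.98% were called lower and 2.45% higher on this scale.

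The S5 to H3 ratio at tgp1 moved the other way, from -0.42, -0.50 and -0.44 in V to -0.17, -0.02 and 0.20 in Q, a change of 0.41 ± 0.09 (limma adjusted p = 0.0070, by the p alone, as in 33.7% of windows). At pho7 it stayed between -0.28 and -0.19 in all 6 libraries. In Q libraries the 4 genes thus lay between -0.28 and 0.22, where in V libraries they ranged from -0.50 to 2.07. Over all ORF windows S5 followed H3 more closely in Q (Pearson r 0.952 to 0.983) than in V (0.426 to 0.531). The narrower range in Q therefore cannot be read as particular to these genes. The ratio of S2 to H3 was called lower at pho1 (-1.52 ± 0.46, limma adjusted p = 0.045), as in 2.07% of windows, and was -1.28 ± 0.45 at pho84 (limma adjusted p = 0.061).

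At pho84 and pho1 the change of H3K4me3 was close in size to that of H3. Relative to H3 its changes were 0.39 ± 0.11 at pho84 and 0.28 ± 0.10 at pho1, which passed the p alone (limma adjusted p = 0.012 and 0.038), and 0.33 ± 0.10 at pho7, as in 40.4% of windows. At tgp1 the ratio of H3K4me3 to H3 was -3.19, -3.30 and -3.26 in V and -0.59, -0.97 and -1.09 in Q, a change of 2.36 ± 0.39 (limma adjusted p = 0.0013) that was called, as in 18% of windows. H2A.Z relative to H3 was called at none of the 4, against 0.517% of windows called higher. It differed by -0.24 at pho84 and -0.22 at pho1, which did not pass, and by 0.81 ± 0.06 at pho7, by the p alone, as in 34.2% of windows.

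H3K9ac was called at no member and at 0% of windows of either table in limma. At tgp1 its ORF values were 446, 360 and 358 in V and 679, 499 and 590 in Q, a difference of 0.60 ± 0.13 without overlap (limma adjusted p = 0.28). This was the only member under 0.05 by unadjusted p, and edgeR and DESeq2 called 0. At pho84 (0.05), pho1 (-0.37) and pho7 (0.08) the groups overlapped. Relative to H3, H3K9ac was called lower at pho84 (-1.28 ± 0.17) and pho1 (-1.38 ± 0.21, limma adjusted p = 0.013 for both), as in 1.96% of windows.

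Results for the heterochromatin marks rested on the replicate block, a term for the replicate number in the fit. For H3K9me2, pho84 gave 577, 593 and 619 in V and 962, 1293 and 894 in Q. The groups did not overlap, with a change of 0.80 ± 0.13 (limma adjusted p = 0.00031, 0.096 without the block and 0.64 without replicate 2) that 18 of 6574 windows exceeded. It passed the p alone, as did 0.821% of windows, and no member was called, where 0.0152% of windows were called higher and 0.913% lower. By unadjusted p 3 members were under 0.05. Most of the error in this fit came from windows of like level.

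H3K9me3 rose by the p alone at pho84 (0.59 ± 0.11), tgp1 (0.59 ± 0.16) and pho7 (0.44 ± 0.10), as did 11.1% of windows, and was called at no member, where 0.0304% of windows were called higher and 0.639% lower. All 4 members were under 0.05 by unadjusted p. Without the block the adjusted p of these was 0.19, 0.22 and 0.27, and edgeR and DESeq2 called no member for either mark. Relative to H3, both marks were lower in Q at pho84 and pho1, with H3K9me2 at -0.53 and -0.69 and H3K9me3 at -0.74 and -0.74, of which only H3K9me3 at pho1 passed, by the p alone (limma adjusted p = 0.027), as in 22.3% of windows.

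Levels between genes were compared per kb of window. In V cells S5 averaged 1726 normalized reads per kb at pho1, 1705 at pho84, 769.7 at pho7 and 702.1 at tgp1, against a median window of 570.3. The pho1 and pho84 libraries overlapped each other, as did those of pho7 and tgp1, while the 2 pairs were apart. In Q cells the order became tgp1 (1285), pho84 (1280), pho1 (912.5) and pho7 (758.3), and only tgp1 and pho84 overlapped.

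Ranked among all 6613 ORF windows of a library, S5 at pho84 and pho1 stood at a median percentile of 98.4 and 98.9 in V and 99.3 and 96.4 in Q. At tgp1 it stood at 72.1 in V and 99.3 in Q. In Q libraries S5 per kb followed H3 across windows (Pearson r 0.952 to 0.983), so the Q ranks of S5 are not separate from those of H3. H3 went from 14.2 to 99.3 at pho84 and from 15.2 to 98.1 at pho1, while at tgp1 (98.5 to 99.4) and pho7 (94.5 to 93.8) it was high in both states. H3K4me3 rose in rank at each gene, from 19.6 to 99.0 at pho84, 11.1 to 99.0 at tgp1, 21.9 to 94.1 at pho1 and 50.0 to 90.7 at pho7.

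In V cells, pho84 and pho1 therefore combined S5 among the highest of all windows with H3 in the lowest part of the range. In Q cells the order of the 4 genes per kb, tgp1 above pho84, pho1 and pho7, was the same for 6 of the 8 antibodies, H3 among them. For each of these the tgp1 and pho84 libraries overlapped, and for H3K4me3, H3K9ac and H2A.Z every neighbouring pair did. In V cells no order was shared by more than 2 antibodies, and some neighbours in the order overlapped for each antibody. The orders are thus those of the means and are only partly resolved.

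**Figure D3:**
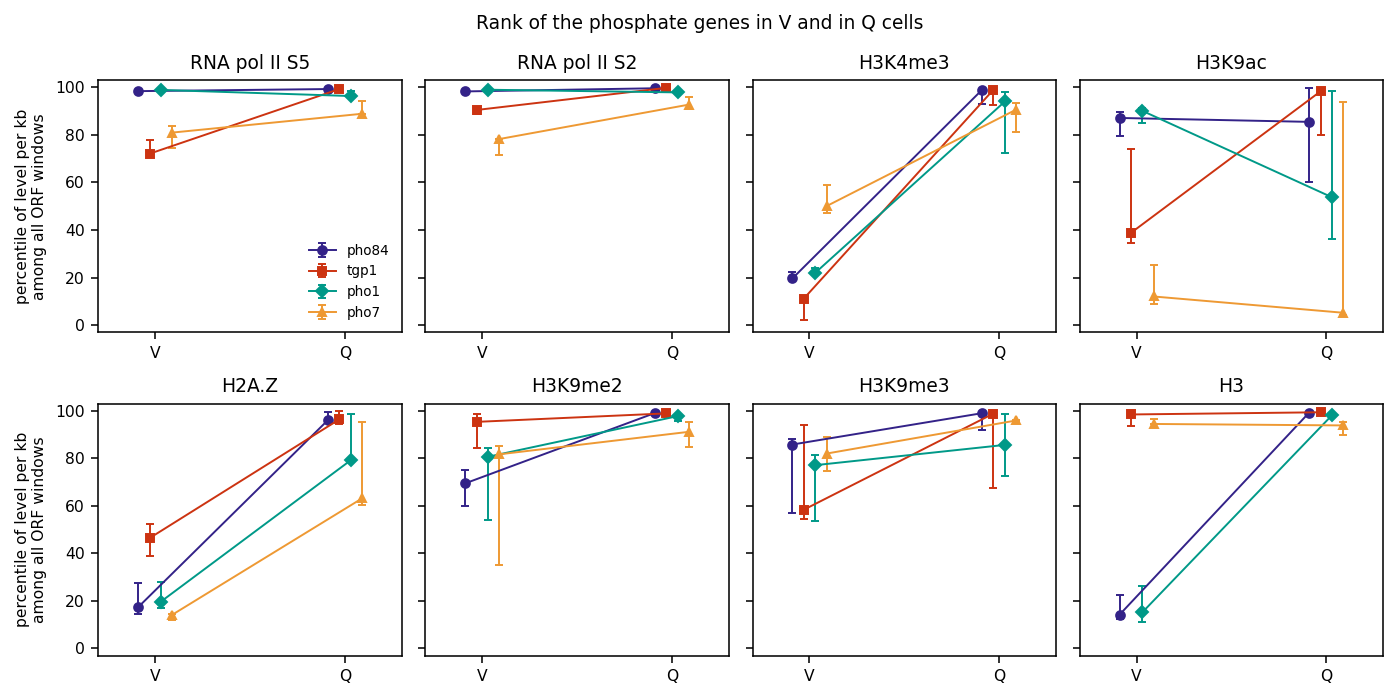
Percentile of the level per kb of pho84, tgp1, pho1 and pho7 among all ORF windows of a library, in V and Q. Markers are the median library and bars run from the lowest to the highest library. H3 at pho84 and pho1 moves from percentiles 14.2 and 15.2 to 99.3 and 98.1, while S5 at these genes ranks high in both states. In Q libraries S5 follows H3 across windows (Pearson r 0.952 to 0.983), so its Q rank is not separate from that of H3.

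TSS windows lie at or beside the starts of the repressive lncRNAs. The prt2 start is in the window of SPBC8E4.02c, 168 bp from its lower end, the prt start in the pho1 window, 186 bp from its lower end, and the window of SPNCRNA.1343 holds 400 bp of nc-tgp1 and ends 3 bp before its start. The last of these also holds the start of SPNCRNA.1343, which runs the other way. S5 fell by the p alone at all of them, as in 23.7% of TSS windows, and was called at none, where 1.78% were called lower and 7.59% higher.

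At the prt2 start S5 gave 740, 523 and 592 normalized reads in V and 275, 411 and 409 in Q, a change of -0.86 ± 0.22 (limma adjusted p = 0.0090). At the prt start it gave 978, 674 and 744 in V and 377, 497 and 485 in Q, a change of -0.87 ± 0.29 (limma adjusted p = 0.031). At the nc-tgp1 window it gave 912, 651 and 727 in V and 370, 486 and 444 in Q, a change of -0.87 ± 0.27 (limma adjusted p = 0.022). No groups overlapped, V replicate 1 was the highest and Q replicate 1 the lowest library at each start.

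Without replicate 1 the S5 changes were -0.44 at prt2, -0.53 at prt and -0.57 at nc-tgp1. The prt call by the p was lost without any 1 of the replicates (limma adjusted p = 0.052 to 0.11), and with the replicate block it was 0.097 for prt and 0.069 for nc-tgp1. At the pho84 start itself S5 gave 649, 516 and 554 in V and 288, 475 and 458 in Q, a change of -0.64 ± 0.22 (limma adjusted p = 0.033, and 0.11 with the block), which was -0.20 without replicate 1 (limma adjusted p = 0.33). Over the 3′ end of tgp1 the S5 TSS value rose by 0.85 ± 0.13 (limma adjusted p = 0.00081) by the p alone, as in 23.2% of TSS windows, so that S5 was lower in Q at the nc-tgp1 window and higher at the end of the gene downstream. For S2 in TSS windows only the 3′ end of tgp1 passed, by the p alone (0.73 ± 0.21, limma adjusted p = 0.0032), as in 19.1% of windows. This fit had 2 V and 2 Q libraries and took nearly all of its error from windows of like level. No S2 member was called there, where 0.763% of windows were called higher and 0.381% lower, and edgeR and DESeq2 called 0.

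Relative to H3, S5 was called lower at all of these starts, with -2.27 ± 0.47 at prt2, -2.35 ± 0.46 at prt and -1.35 ± 0.26 at nc-tgp1, as in 7.84% of TSS windows.

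Among the histone readouts at these starts, H3K4me3 fell at the nc-tgp1 window, from 601, 599 and 559 in V to 233, 269 and 274 in Q, a change of -1.18 ± 0.40 (limma adjusted p = 0.0063). It was called, but the limma adjusted p was 0.19 without replicate 2 and 0.073 without replicate 3, and the change -0.98 with library totals. The groups did not overlap, and this SE and these p-values come mostly from windows of like level, not from disagreement of the replicates. At the prt start H3K4me3 gave 160, 223 and 185 in V and 248, 266 and 204 in Q, which overlapped, with a change of 0.34 ± 0.12 that was 0.20 without replicate 1 (limma adjusted p = 0.11) and -1.16 ± 0.17, called lower as in 25.5% of TSS windows, relative to H3. At the prt2 start it rose by 0.79 ± 0.15 by the p alone, as in 44.4% of TSS windows, and relative to H3 it was -0.64 ± 0.18, lower by the p alone as in 45.1%.

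H2A.Z was called higher at all of these starts. At prt2 it gave 182, 113 and 123 in V and 408, 304 and 270 in Q, a change of 1.23 ± 0.12. At prt it gave 208, 161 and 198 in V and 492, 384 and 352 in Q, a change of 1.10 ± 0.11. At nc-tgp1 it gave 220, 150 and 176 in V and 532, 338 and 352 in Q, a change of 1.14 ± 0.10. The groups were apart at each, and 8.37% of TSS windows were called higher and 1.28% lower. These SEs of H2A.Z come mostly from windows of like level.

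H3 was called higher at prt2, with 164, 126 and 84.5 in V and 305, 344 and 336 in Q and a change of 1.44 ± 0.16, and at prt (above). It rose by the p alone at nc-tgp1 (0.49 ± 0.13), as in 16% of TSS windows. Relative to H3, H2A.Z was called at none of these starts, where 8.31% of windows were called higher. It was 0.65 at nc-tgp1, by the p alone as in 30.3% of windows, and -0.20 at prt2 and -0.40 at prt, which did not pass.

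**Figure D4:**
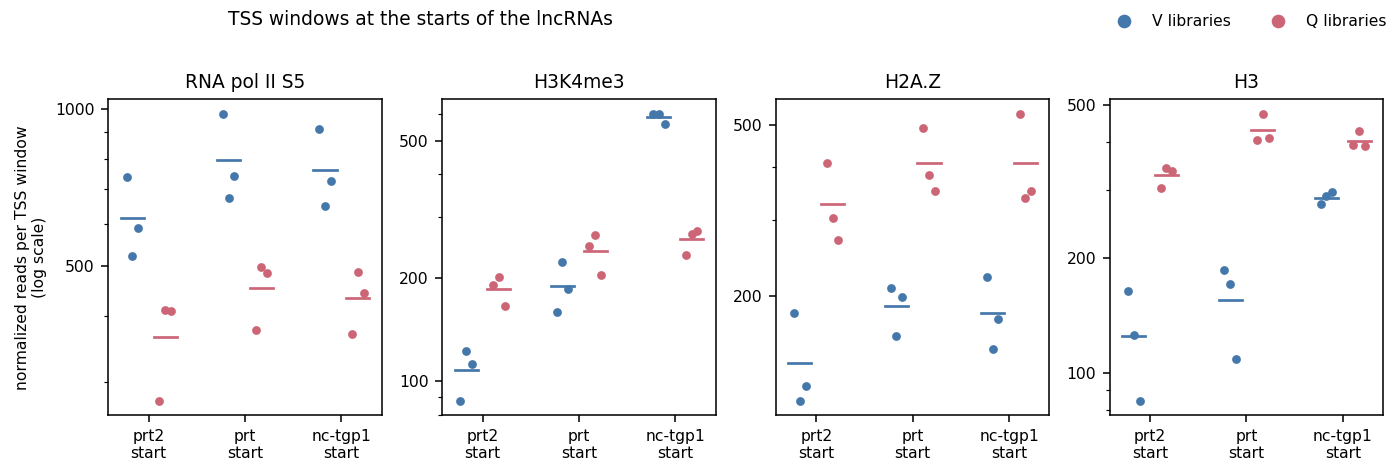
Normalized reads in the TSS windows at the starts of prt2, prt and nc-tgp1 for S5, H3K4me3, H2A.Z and H3, by library (log scale, blue V, red Q, lines the means of the points). S5 is lower in every Q library at all of the starts, H2A.Z and H3 are higher, and H3K4me3 is lower in every Q library at nc-tgp1.

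The remaining TSS windows gave the following. H3K4me3 was called higher at the pho84 start and at the 3′ ends of tgp1 and pho7, 3 of the 4 members, where 36.4% of TSS windows were called higher and 21.7% lower. At the pho84 start it gave 97.0, 65.7 and 56.7 in V and 206, 218 and 197 in Q, a change of 1.53 ± 0.18, and 0.30 (not passing) relative to H3. At the 3′ end of pho7 it gave 68.8, 32.0 and 33.1 in V and 258, 224 and 164 in Q, a change of 2.31 ± 0.26, and 2.51 relative to H3, called as in 35.3% of windows.

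The strand of the gene sets what such a window covers. H3K4me3 was called higher in 54.1% of 3197 TSS windows of minus-strand genes, which hold 3′ ends, and in 19.1% of 3242 of plus-strand genes, and the tgp1 and pho7 windows are of the former kind. H2A.Z was called higher at 3 members, pho84 (1.32 ± 0.12), pho1 (1.10 ± 0.11) and pho7 (1.06 ± 0.12). At pho7 it was 0.94 without replicate 1, 0.98 without replicate 2 and 1.00, just under the threshold, with V replicates 2 and 3 as 1 library. The SEs of H2A.Z here come mostly from windows of like level. H3K9ac (0% of windows called in either direction) and H3K9me2 (0.0763% higher and 0.0915% lower) passed at no TSS window of the 4 in limma, with 1 member each under 0.05 by unadjusted p and 0 called by edgeR or DESeq2. For H3K9ac this was tgp1 (0.64 ± 0.12, limma adjusted p = 0.054), which passed by the adjusted p in edgeR (0.021) and DESeq2 (0.037). H3K9me3 passed the p alone at tgp1 (0.66), pho1 (0.61) and pho7 (0.78), as in 5.26% of windows, and was called at none, where 0.153% were called higher and 0.595% lower. By unadjusted p 3 members were under 0.05, edgeR and DESeq2 called 0, and each pass was lost without the block (limma adjusted p = 0.17 for all).

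The neighbours show how far the changes at the pho84 and pho1 locus reached. The SPBC8E4.02c window, which the annotation names prt2 and which overlaps the pho84 window by 466 bp, gave 819, 505 and 285 normalized reads of H3 in V and 1443, 1674 and 1624 in Q. Its H3 change of 1.68 ± 0.29 (limma adjusted p = 0.028) was called, its H3K4me3 change was 1.58 ± 0.11, and S5 fell by 0.77 ± 0.18 on the log2 scale by the p alone. H3 at ecl3, the gene on the far side of prt2, differed by 0.24 ± 0.10 and did not pass (limma adjusted p = 0.15), while S5 there changed by -0.91 ± 0.10 by the p alone. Relative to H3, S5 was called lower at prt2 (-2.42 ± 0.60) and ecl3 (-1.17 ± 0.16), as in 6.98% of windows. H3K4me3 relative to H3 was -0.11 ± 0.22 at prt2 and did not pass.

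Beyond pho1, the lncRNA SPNCRNA.446 was called higher in S5. Its S5 values were 282, 175 and 135 in V and 598, 566 and 525 in Q, a change of 1.60 ± 0.30 that was called (limma adjusted p = 0.0081). H3K4me3 there changed by 2.37 ± 0.32 and H3 by -0.09 ± 0.07, which did not pass. Relative to H3, S5 there changed by 1.69 ± 0.65 and did not pass (limma adjusted p = 0.055). H3K4me3 relative to H3 changed by 2.47 ± 0.51, called as in 18% of windows. The H3 calls of this locus were thus at prt2, pho84 and pho1 and at neither flank.

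Beside tgp1, SPBC1271.10c, which overlaps its window by 84 bp, changed by 0.11 ± 0.05 in S5 and 0.05 ± 0.04 in H3, neither passing, and by 0.67 ± 0.07 in H3K4me3 by the p alone. SPNCRNA.1343, on the other side, changed by -0.26 ± 0.15 in S5, not passing, by -0.36 ± 0.07 in H3K4me3 and by 0.56 ± 0.11 in H3, both by the p alone. Around pho7, of 4 neighbours, only the window SPBC27B12.14 (cbp4) was called in the H3K4me3 ORF table, with 471, 533 and 545 in V and 201, 228 and 267 in Q and a change of -1.16 ± 0.11. It shares 146 bp with the pho7 window, whose own H3K4me3 changed by 0.30. None of the pho7 neighbours was called in H3.

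**Figure D5:**
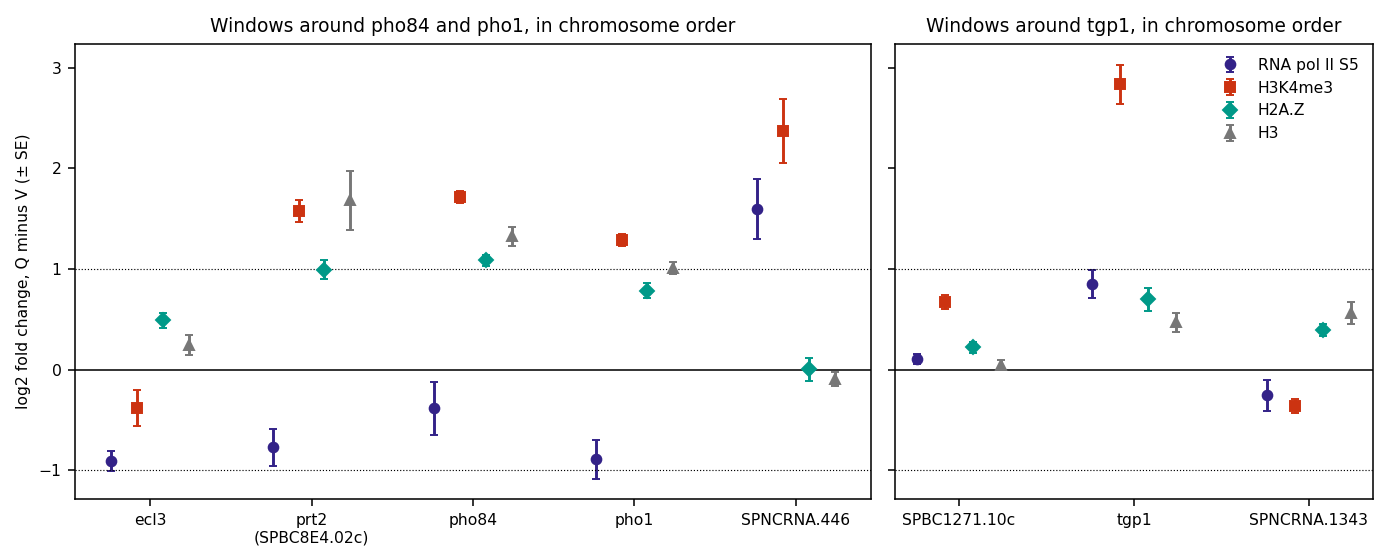
Change from V to Q (log2, ± SE) of S5, H3K4me3, H2A.Z and H3 in ORF windows along the prt2, pho84 and pho1 locus and the tgp1 locus. H3 is 1.68 at prt2, 1.33 at pho84 and 1.01 at pho1, and 0.24 and -0.09 at the flanking ecl3 and SPNCRNA.446.

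Other genes of the phosphate pathway were called about as often as all windows in H3K4me3 and seldom in the other readouts. Of 28 genes listed under phosphate uptake and hydrolysis, inositol pyrophosphates and polyphosphate, or transcription termination, which acts on the lncRNAs, 21 matched a window. In the ORF tables H3 was called at 0 of the 21, with a median change of 0.01, S5, S2, H3K9ac, H3K9me2 and H3K9me3 at 0. By the p alone, S5 was higher at 3 and lower at 9, against 26.2% and 25.6% of all windows, with a median of -0.13 where the median over all windows was 0.01. H3 was higher by the p alone at 3, against 8.81%.

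H3K4me3 was called higher at 4 of the 21 and lower at 4, near the 19.4% and 13.8% of all windows, with a median change of 0.19. The higher ones were SPBC1683.01, a predicted phosphate transporter (1.09 ± 0.05), and the termination genes dis2, a protein phosphatase (1.13 ± 0.07), ppn1 (2.05 ± 0.14) and ctf1 (1.09 ± 0.19), subunits of the 3′ processing machinery. The lower ones were the phosphatase gene pho2 (-1.30 ± 0.13), the polyphosphate synthesis genes nrf1 (-1.16 ± 0.13) and vtc2 (-1.15 ± 0.12), and rhn1, a termination factor (-1.61 ± 0.11). H2A.Z was called only at SPAC23D3.12, a predicted phosphate transporter, with 1455, 1139 and 1213 normalized reads in V and 3249, 2748 and 2520 in Q and a change of 1.16 ± 0.05.

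By list, S5 passed the p alone in the lower direction at 2 of 6 genes listed under uptake (pho2 and pho4). It did so at 4 of 6 listed under inositol pyrophosphates and polyphosphate (aps1, nrf1, vtc2 and vtc4) and 3 of 9 under termination (dis2, seb1 and pcf11). It passed in the higher direction at 1 gene of each list, pho8, csk1 and ctf1. H2A.Z passed the p alone in the higher direction, beside the call, at 12 of the 21, against 38.3% of all windows including those called, with a median change of 0.41 where all windows had -0.01.

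Windows most like each gene were ranked by Pearson r over the 16 group means of the 8 antibodies in 2 states, which come from the same libraries for all genes. For pho84 these were tef103, a translation elongation factor (0.994), tdh1, a glycolytic dehydrogenase (0.992), and ssa2, a heat shock protein (0.983). For pho1 they were tef101 (0.984), mae1, a malate transporter (0.978), and ssa2 (0.975). For tgp1 they were ght5, a hexose transporter (0.971), a serine tRNA, SPCTRNASER.12 (0.970), and gsf1 (0.969), and for pho7 dfp1 (0.990), ulp1 (0.990) and sec27 (0.988). Among the 4 genes themselves tgp1 reached 0.768 with pho84. This was rank 346 of 6569 windows in the ranking for pho84 and rank 1126 of 6570 in that for tgp1. With pho1, tgp1 reached 0.641, and pho7 reached at most 0.546. The pho84 and pho1 windows overlap and were not compared in this way. With Spearman's rho the lists shared only mae1 and dfp1.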

How the data were processed

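The deposited signal values were reads per window divided by a DESeq2 size factor, made by the authors from Illumina reads (bcl2fastq 2.20.0.422) aligned with BWA 0.7.17 to ASM294v2, with SAMtools 1.17 and deepTools 3.3.2 also named in their processing notes. ORF windows were to reach 200 bp beyond both gene ends and TSS windows 200 bp to either side of the start. Drosophila chromatin was added as a spike-in, and the labels and methods do not say whether it entered the values. The authors' fold changes and p-values were not used, nor were the 2 input samples. Whole reads were recovered in all 96 columns (tolerance 0.001).

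Values plus 1 were log2-transformed and fitted in R 4.3.3 by limma 3.58.1 with an intensity trend, over windows reaching 10 in at least 3 libraries, with the replicate number as a block for histones. The script was tested on simulated data. For S5 and S2, Q replicates 2 and 3 were averaged and no block was used. Same-numbered V and Q libraries deviated together (every correlation over 0.1) in 3 of 12 histone tables. The labels call the samples replicates and the study's methods call them biological. The p-values of limma combine the spread between them with that of windows of like level. In the TSS fits of S2, H3K4me3, H3K9me2 and H3, nearly all of the error came from windows of like level. Most of it did in other fits too, among them H2A.Z and H3K9me3 in TSS windows and H3K9me2 in ORF windows. A ratio to H3 is the log2 value minus that of H3 of the same state and replicate. Alternatives were edgeR 4.0.16 and DESeq2 1.42.0 on recovered reads, another pseudocount, no filter, library totals, other blocks and leaving out replicates.

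The members and gene lists were chosen with earlier results of these data known. Named were the 4 genes, listed genes called in an ORF table, all windows within 3000 bp of a member and the 3 windows most like each. Sequences were from RefSeq (ASM294v3), with 6529 of 6613 windows matched by identifier. Plots were drawn with matplotlib 3.10.9.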

Additional observations from a re-analysis of the deposited data

How the results depend on the processing

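Of 694 values of the 4 genes under the alternatives, 12 became and 10 ceased to be called in the same direction, and 6 changed sign where the value was called before or after, all 6 relative to H3. In all, 37 changed sign, 17 of them relative to H3, 16 without a replicate and 4 under other alternatives. Relative to H3, the members called were 2 lower for S5 ORF, 1 lower for S2 ORF, 1 higher for H3K4me3 ORF, 2 lower for H3K9ac ORF, 0 higher for H2A.Z ORF, 2 lower for S5 TSS, 1 lower for S2 TSS, 2 higher and 1 lower for H3K4me3 TSS, 2 lower for H3K9ac TSS, 1 higher for H2A.Z TSS and 1 lower for H3K9me2 TSS. With library totals 1 member was called higher for H3 ORF. Leaving out a replicate gave 0 to 1 members called higher and 0 to 1 lower for S5 ORF, 0 to 1 higher for S5 TSS, 2 to 4 for H2A.Z TSS, and 1 to 2 for H3 ORF and for H3 TSS. The reversed values were, for prt2 (SPBC8E4.02c), -0.11 for H3K4me3, -1.58 for H3K9ac and -1.50 for H3K9me3 in ORF windows, and -1.01 for S2, -1.23 for H3K9ac, -0.20 for H2A.Z and -1.22 for H3K9me3 in TSS windows. They were -1.28 for H3K9ac and -0.24 for H2A.Z in the pho84 ORF window, and -1.16 for H3K4me3, -1.46 for H3K9ac, -0.40 for H2A.Z and -1.07 for H3K9me2 in the pho1 TSS window. The cause was not tested.

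Without the replicate block no call at the fold threshold was lost for the 4 genes, and the passes by the p alone of H3K9me2 and H3K9me3 were. With the S2 TSS column of V replicate 3 kept, the changes were 0.19 at pho84 and 0.02 at pho1, neither called. The S2 TSS fit without replicate 1 could not be fitted, since it left no residual degrees of freedom. Over all windows, the counts called ranged over the alternatives, for S5 ORF from 161 to 445 higher and 26 to 459 lower, H3K4me3 ORF 1183 to 1326 and 652 to 1129, H2A.Z ORF 34 to 143 and 26 to 217, H3 ORF 31 to 250 higher, S5 TSS 304 to 679 and 76 to 514, H3K4me3 TSS 2283 to 2557 and 824 to 1672, H2A.Z TSS 356 to 714 and 37 to 162, and H3 TSS 52 to 312 higher. For S2 and the 3 other marks they ranged from 0 to at most 158. The median change over all windows shifted by 0.20 (H3K4me3 TSS) and -0.10 (H3K9me3 ORF) with library totals and by -0.11 (H2A.Z TSS) relative to H3. Member windows held 14 to 6041 reads, so the low H3K4me3 values of tgp1 are the least precise.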
